A study of Mus musculus with 8 samples.

Results

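Glutathione transferases were compared between 2 cell types of the mouse yolk sac, each collected by laser microdissection of frozen tissue. The members were 10 genes (Gsta3, Gsta4, Gstm1, Gstm2, Gstm5, Gsto1, Gstp1, Gstt1, Gstt2 and Mgst1), of 12393 genes with a probe set of their own on the array. They were chosen by gene symbol: each probe set annotated to one of these genes alone was taken, 16 in all. The series holds 4 captures of primitive erythroid precursors, the first red cell precursors of the embryo, and 4 of yolk sac epithelial cells, the study's non-erythroid control. All came from FVB/N mice at embryonic day 9.5, and each erythroid capture is paired with the epithelial capture taken from the same slides. Each sample pooled 2 to 4 yolk sacs from 2 litters, and 10 to 39 ng of RNA was amplified over a pair of cycles before hybridisation to its own Affymetrix array. An erythroid cell took 2 to 3 laser pulses and an epithelial cell 1 pulse.

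Glutathione transferases join the tripeptide glutathione to reactive compounds, among them drugs, carcinogens and the products of lipid peroxidation, so that these can be carried out of the cell. The cytosolic enzymes fall into classes named by Greek letters (alpha, mu, omega, pi, theta), and a separate family of membrane proteins, the MAPEG family, holds the microsomal enzymes. Several of their genes respond to Nrf2, a transcription factor of the oxidative stress response. Red cells use glutathione against peroxides, and the visceral endoderm, the outer epithelium of the yolk sac, carries many genes that the liver uses later.

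The captured cell types were checked with marker genes. Of 9 erythroid markers tested, 7 were higher in the erythroid captures, and of 10 visceral endoderm markers 8 were lower. Each capture also held signal of the other type. The 10 endoderm markers summed to 52914 to 90886 in erythroid captures, against 83881 to 146711 in epithelial captures, and the 9 erythroid markers to 58956 to 107247 and 32960 to 52627. A few bright probe sets that differed little weigh heavily in these sums. The brightest probe sets of Afp, Ttr and Hbb-bh1 had mean signals of 26340, 28477 and 39902 in erythroid captures. In epithelial captures they had 26125, 29130 and 36732. Their log2 differences were -0.16, -0.20 and -0.11, against 2.49 for Klf1 and -1.83 for Vil1. The sums thus do not measure the share of cells of the other type. Dimmer probe sets of these genes did not all show the same. Probe set 1416646_at of Afp gave -0.86 (limma adjusted p = 0.00102) and 1451580_a_at of Ttr gave -1.50 (limma adjusted p = 0.00139). Other tested probe sets of Afp and Hbb-bh1 did not pass. Of 9 mesenchyme and mesothelium markers, 5 were higher in the erythroid captures, with sums of 26252 to 46632 in erythroid and 6191 to 24005 in epithelial captures. Of 5 megakaryocyte and platelet markers 2 were higher, with sums of 5040 to 18287 and 1593 to 2664, and of 5 endothelial markers 1 was, with sums of 975 to 2017 and 389 to 860. No tested marker of these 5 lists was under the background level on every array of a group. Shortened RNA raises the 3′ signal of the Gapdh control over its 5′ signal. That ratio was 38.7 to 44.4 in pairs 1 and 2, against only 7.0 to 17.4 in pairs 3 and 4. For that reason, values within each of these sets of pairs are given beside most results. The ratio also differed within pair 3, at 17.4 in the erythroid and 8.16 in the epithelial capture. Gapdh ratios of the other pairs lay closer together. The same ratio of the Actb control differed most within pair 1, at 46.5 in the erythroid and 131 in the epithelial capture. The part of these differences within pairs in the results was not tested. In such pooled captures, fewer cells of a type and less RNA per cell cannot be told apart.

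Among the glutathione transferases, Gstm1 and Gstt2 fell in the erythroid captures and Gstm5 rose. The other 5 members tested (Gsta4, Gstm2, Gsto1, Gstp1 and Gstt1) did not pass, and Gsta3 and Mgst1 were too dim to be tested. Probe sets below the median of their array on more than 4 of the 8 arrays were not tested, and the brightest tested probe set, by its mean, stood for a gene. A gene was called at an adjusted p under 0.05 in a paired limma fit over 11449 probe sets. Thus 3 of 8 members tested were called, 1 higher and 2 lower, where 14.9% of all 7191 genes tested were called (6.02% higher and 8.87% lower). The median log2 difference was -0.23 over the 8 members and -0.01 over all genes tested. By probe set, 4 of 12 were called, 1 higher and 3 lower, where 13.9% of all were (6.19% higher and 7.69% lower). With so few members, these shares say nothing particular about the family. Of the 8, 6 had 1 sign in all 4 pairs, against 38.2% of all genes tested. In 1 of the 8, Gsto1, the signals of the groups did not overlap, against 13.7% of all genes tested.

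**Figure D1:**
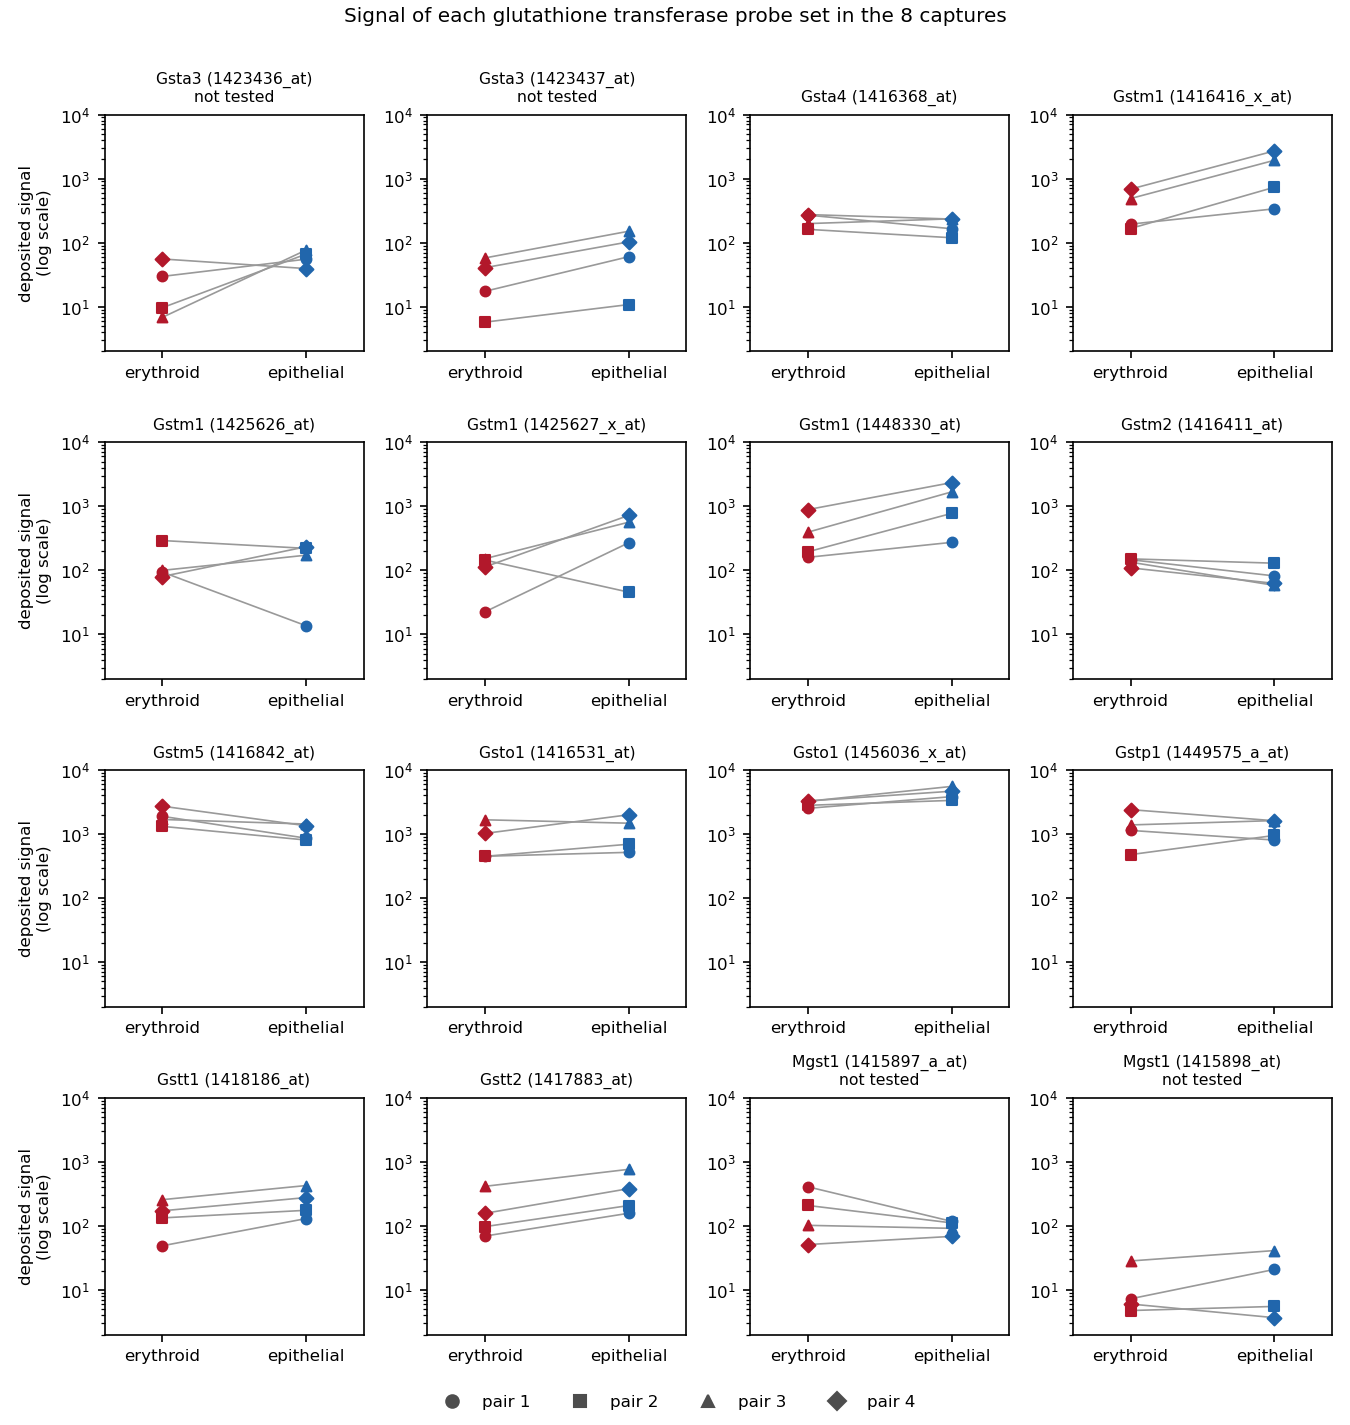
Deposited signal on a log axis of each of the 16 member probe sets, with erythroid captures in red at the left, epithelial captures in blue at the right, a symbol for each pair and a grey line joining the captures of a pair. The lines of the Gstm1 probe sets 1416416_x_at and 1448330_at all run upward to the epithelial side, those of Gstm5 all run downward, and Gstp1 shows both.

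Among the 8 members tested, the lowest and the highest log2 difference were both those of mu class genes. Gstm1, a mu class enzyme abundant in liver, read 194, 166, 487 and 684 in erythroid captures 1 to 4, against 337, 732, 1929 and 2704 in the epithelial captures. In each pair the erythroid capture was lower, while the groups overlapped because epithelial pair 1 lay below erythroid pairs 3 and 4. The log2 difference was -1.78 ± 0.24 (SE, n = 4 pairs, limma adjusted p = 0.00204), a level 3.43-fold lower in the erythroid captures. It was -0.98, -2.07, -2.03 and -2.04 in pairs 1 to 4, so pair 1 showed the smallest change. Pairs 1 and 2 gave -1.52 and pairs 3 and 4 gave -2.04, a difference that did not pass its own test (adjusted p = 0.67). The visceral endoderm markers had median log2 differences of -0.99, -1.08, -1.95 and -1.55 in the same pairs, and their part in the result was not tested.

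Gstm1 had 4 probe sets, and they did not all show the same. The value above is from 1416416_x_at, of a kind (x) that can bind related transcripts. A second probe set without that mark, 1448330_at, had 160, 195, 394 and 887 in erythroid captures and 274, 775, 1678 and 2343 in epithelial captures. It gave -1.62 ± 0.24 (SE, n = 4 pairs, limma adjusted p = 0.00286), with the erythroid capture lower in 4 of 4 pairs. The others were dimmer and scattered. Probe set 1425627_x_at gave -1.55 ± 0.69 (limma adjusted p = 0.159), with pair 2 at 1.78 against -3.49, -1.98 and -2.52 in the others, and without replicate 2 it was called at -2.73 (adjusted p = 0.00319). Probe set 1425626_at gave 0.04 ± 0.57 (limma adjusted p = 0.974), higher in the erythroid captures of pairs 1 and 2 and lower in those of pairs 3 and 4. Thus 2 of 4 probe sets, the brighter ones, carried the call.

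Gstm5, another mu class gene, moved the other way. Its signals were 1896, 1320, 1691 and 2729 in the erythroid captures, against 862, 807, 1435 and 1348 in the epithelial captures. The erythroid capture was higher in 4 of 4 pairs, and the groups overlapped only because erythroid pair 2 lay below epithelial pairs 3 and 4. The log2 difference was 0.81 ± 0.20 (SE, n = 4 pairs, limma adjusted p = 0.0227), a 1.75-fold higher level, with 1.04, 0.74, 0.30 and 1.16 in pairs 1 to 4. It was 0.89 over pairs 1 and 2, against 0.73 over pairs 3 and 4. The call was near the threshold: it ended when pair 1 was left out (adjusted p = 0.0718), when pair 4 was left out (0.142), and with the arrays centred on their medians (0.59, adjusted p = 0.127). The erythroid markers had median log2 differences of 1.22, 1.16, 3.66 and 2.48 in pairs 1 to 4. The mesenchyme and mesothelium markers, also higher in the erythroid captures, had medians of 0.05, 0.59, 1.79 and 2.50 in pairs 1 to 4. The megakaryocyte and platelet markers had medians of 0.21, 1.00, 3.27 and 1.69 in those pairs, and the endothelial markers 0.76, 0.55, 1.27 and 1.11. The part of any of these lists in the result was not tested.

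The promoters of Gstm1 and Gstm5 are shown because these genes of 1 mu class cluster were called in opposite directions. Each is 300 bases long, from 250 before the start of transcription to 50 after it, and RefSeq's table (GRCm38.p6) held one for 8 of the 10 members. Of the 2 entries for Gstm1, the one farther upstream is given. Capitals mark matches on either strand to 3 motifs, none of which overlapped here: TGACNNNGC, the core of the antioxidant response element that Nrf2 binds, GATAA, part of the site of GATA factors, and CCACACCC, a site of Kruppel-like factors.
Gstm1, chr3:108017924-108018223, minus strand: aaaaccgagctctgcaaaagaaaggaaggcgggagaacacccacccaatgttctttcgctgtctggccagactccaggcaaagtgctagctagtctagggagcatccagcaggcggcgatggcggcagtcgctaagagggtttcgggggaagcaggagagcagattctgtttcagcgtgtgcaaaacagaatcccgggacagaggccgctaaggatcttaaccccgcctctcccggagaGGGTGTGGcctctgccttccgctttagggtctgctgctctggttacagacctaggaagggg
Gstm5, chr3:107895604-107895903, plus strand: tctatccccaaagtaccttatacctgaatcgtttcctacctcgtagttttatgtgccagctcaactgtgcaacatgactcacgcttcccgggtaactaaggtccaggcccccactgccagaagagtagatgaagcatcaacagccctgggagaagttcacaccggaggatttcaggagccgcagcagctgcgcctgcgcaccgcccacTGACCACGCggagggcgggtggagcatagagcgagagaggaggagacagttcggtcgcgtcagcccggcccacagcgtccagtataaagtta
The Gstm1 promoter held CCACACCC, on the strand opposite to the gene and with its first base 11 bases before the start. Counted from the start in the other Gstm1 entry, the same site lay 166 bases upstream. The Gstm5 promoter held TGACNNNGC on the gene's own strand, 42 bases before the start. Of 32851 promoters of the same length, 12.4% held TGACNNNGC, 25.4% GATAA and 3.56% CCACACCC. Among the members with a promoter, TGACNNNGC also occurred in those of Gsta3 and Mgst1, and GATAA in those of Gsta3 and Gstm2. A match describes letters only, and no binding was measured.

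Gstm2, the third mu class member, was dim. It had 147, 151, 134 and 109 in erythroid captures and 81.9, 129, 58.3 and 62.6 in epithelial captures, where it lay above background on 1 of 4 arrays. The erythroid capture was higher in 4 of 4 pairs, but the log2 difference of 0.52 ± 0.39 (SE, n = 4 pairs) did not pass (limma adjusted p = 0.409). Its uncertain floor in the epithelial captures means that this size is uncertain as well.

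The mu class genes lie side by side on mouse chromosome 3, in the order Gstm5, Gstm7, Gstm6, Gstm3, Gstm2, Gstm1 and Gstm4. Of the 5 tested, 3 fell (Gstm3, Gstm1 and Gstm4), Gstm5 at one end of the cluster rose, and Gstm2 did not pass. Gstm4, at the other end, had 80.9, 181, 247 and 268 in erythroid captures, against 214, 251, 960 and 657 in epithelial captures. Gstm4 gave -1.32 ± 0.30 (limma adjusted p = 0.0168) and Gstm3 -1.15 ± 0.25 (limma adjusted p = 0.0124). The Gstm3 value comes from a probe set of a kind (s) shared by related transcripts, so signal of Gstm1 in it was not told apart. Gstm4 was not called when pair 3 or pair 4 was left out (adjusted p = 0.0862 and 0.0882), nor Gstm3 when pair 4 was (0.117). Gstm6 and Gstm7 were too dim to be tested. Gstm5 stayed positive and both brighter Gstm1 probe sets negative under each scaling tried.

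**Figure D2:**
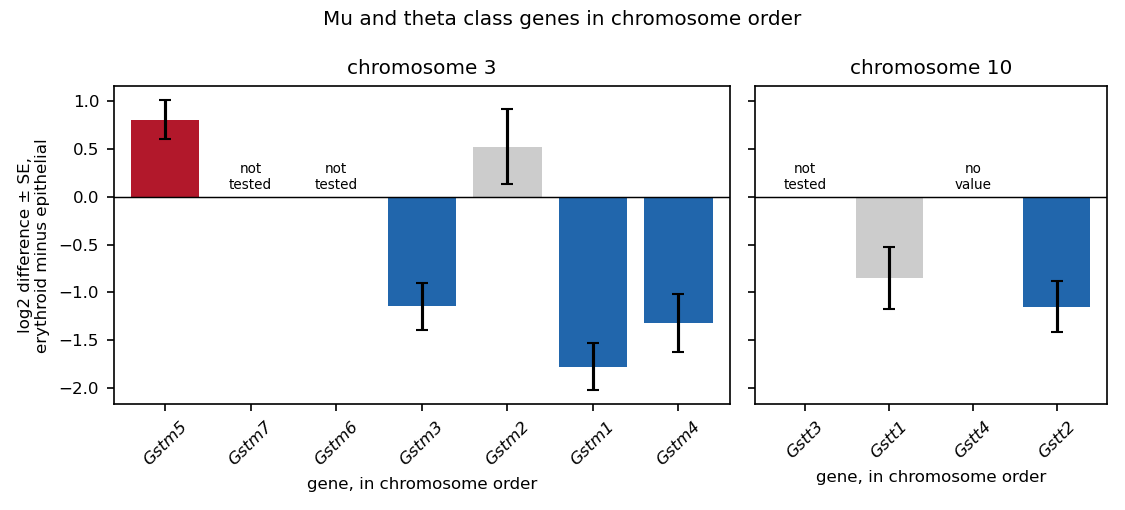
Log2 difference, erythroid minus epithelial, of the mu class genes of chromosome 3 and the theta class genes of chromosome 10, in chromosome order and not to scale along the chromosome. Bars are estimates with their SE (n = 4 pairs), red where called higher, blue where called lower and grey where not called. Gstm5 stands at 0.81 and Gstm1 at -1.78, and both theta class bars point down.

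Both theta class members tested lay lower in the erythroid captures, and Gstt2 passed. Theta class enzymes act on small halogenated compounds and some peroxides. Gstt2 had 69.2, 97.2, 414 and 157 in the erythroid captures of pairs 1 to 4, against 157, 208, 764 and 381 in the epithelial captures. The erythroid capture was lower in every pair, and the 4 within-pair values, -1.43, -0.95, -0.94 and -1.29, were close to each other (SD 0.25). The log2 difference was -1.15 ± 0.26 (SE, n = 4 pairs, limma adjusted p = 0.017), 2.22-fold lower. Its erythroid signal lay above background on 2 of 4 arrays, so the size may be understated. It was not called when pair 3 was left out (-1.21, adjusted p = 0.0732) or pair 4 (-1.06, 0.105). Pairs 1 and 2 gave -1.19 and pairs 3 and 4 gave -1.11.

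Gstt1, in the same cluster on chromosome 10, had 48.8, 133, 256 and 172 in erythroid captures and 130, 175, 426 and 276 in epithelial captures. It was lower in 4 of 4 pairs at -0.85 ± 0.32 (SE), but did not pass (limma adjusted p = 0.105; 95% interval -1.57 to -0.14 before adjustment). The pairs spread from -1.59 in pair 1 to -0.21 in pair 2.

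Gsto1, the omega class enzyme, has thiol transferase and dehydroascorbate reductase activity. Its brighter probe set had 2521, 2810, 3245 and 3281 in the erythroid captures, against 3839, 3354, 5543 and 4666 in the epithelial captures. All 4 erythroid signals lay below all 4 epithelial signals. The log2 difference of -0.48 ± 0.15 (SE, n = 4 pairs) missed the threshold (limma adjusted p = 0.0522), as it did in 11 of 14 alternatives. It passed with the deposited scaling (-0.53, adjusted p = 0.0421), with the stricter filter (0.0444) and in pairs 3 and 4 (-0.58, 0.0341), against -0.38 (0.311) in pairs 1 and 2. This probe set is of the kind that can bind related transcripts. The other one, with means of 898 and 1173 in erythroid and epithelial captures, gave -0.39 ± 0.23 (limma adjusted p = 0.292), with pair 3 at 0.24 and the other pairs below 0.

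For Gstp1, the pi class enzyme, the pairs disagreed. It had 1140, 477, 1388 and 2406 in erythroid captures and 806, 951, 1623 and 1613 in epithelial captures. The erythroid captures were higher in pairs 1 and 4 and lower in pairs 2 and 3, and the erythroid group alone spanned the whole range of the epithelial one. The log2 difference was 0.01 ± 0.26 (SE, n = 4 pairs, limma adjusted p = 0.985), with a 95% interval of -0.56 to 0.58, which leaves room for a change of either sign.

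Neither alpha class member was called. Gsta4, which conjugates the lipid peroxidation product hydroxynonenal, had 269, 161, 198 and 274 in erythroid captures and 165, 119, 235 and 233 in epithelial captures. Its log2 difference was 0.19 ± 0.30 (SE, n = 4 pairs, limma adjusted p = 0.704; 95% interval -0.46 to 0.85), and it was above 0 in 3 of 4 pairs. The sets of pairs differed in sign, at 0.61 over pairs 1 and 2 against -0.22 over pairs 3 and 4. This difference did not pass its test (adjusted p = 0.597). Gsta3, which in the mouse conjugates the epoxide of aflatoxin, had 2 probe sets. The first had 6.77 to 55.6 in erythroid and 39.3 to 76.3 in epithelial captures and was above background on no array. The second had 5.73 to 57.6 in erythroid captures, above background on 0 of 4 arrays, and 10.8 to 151 in epithelial captures, above background on 2 of 4. Both groups of the first and the erythroid group of the second thus gave no measured level, and no fold is given.

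Mgst1, the microsomal member, lay outside the test by its filter. Its brighter probe set had 408, 208, 102 and 51.0 in the erythroid captures of pairs 1 to 4, against 118, 111, 91.5 and 68.5 in the epithelial captures. The erythroid captures of pairs 1 and 2 stood above all others, while those of pairs 3 and 4 did not: the within-pair log2 values were 1.61, 1.21, -0.19 and -0.75. The erythroid signal was above background on 2 of 4 arrays and the epithelial on 3 of 4. Pairs 1 and 2 are those with the high Gapdh 3′ to 5′ ratio, whose part in this was not tested. The second probe set was above background on no array, at 4.76 to 28.3 in erythroid and 3.68 to 41.1 in epithelial captures.

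**Figure D3:**
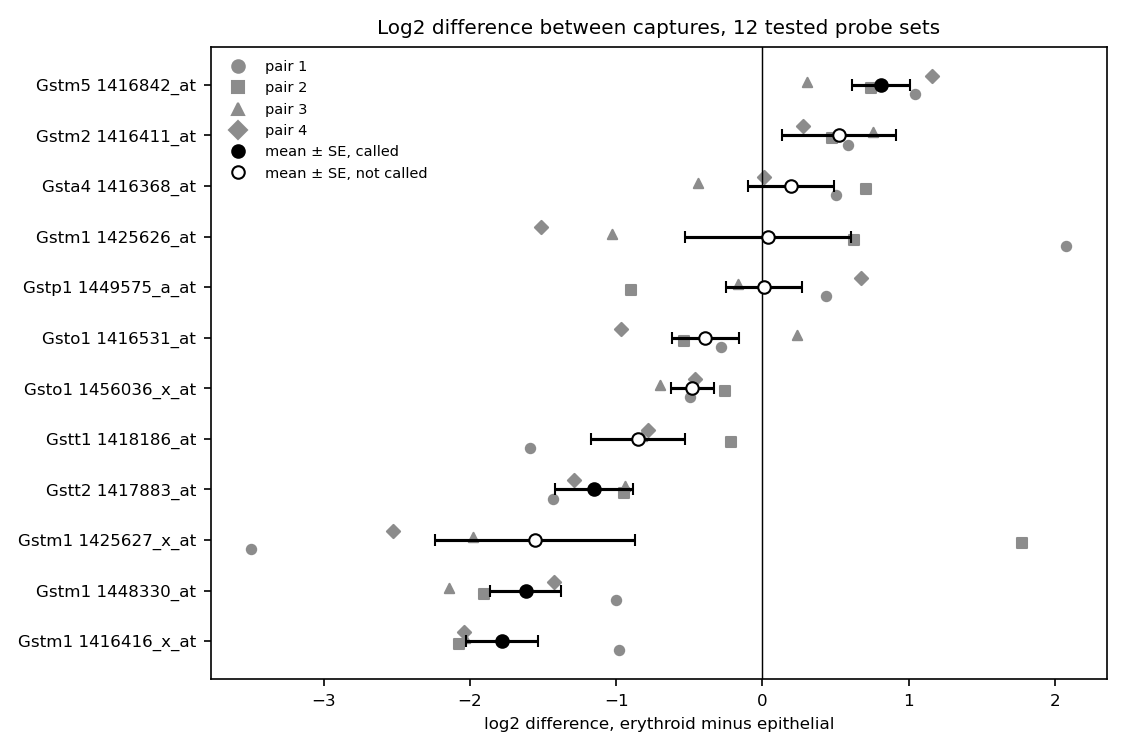
Log2 difference, erythroid minus epithelial, of the 12 member probe sets tested, with a grey symbol for each of the 4 pairs and a circle with its SE for the fit, filled where called. Gstm5 lies at 0.81 and the called Gstm1 probe sets at -1.78 and -1.62. The other Gstm1 probe sets have pairs on both sides of 0.

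In their levels, several members followed the sets of pairs. In the erythroid captures, Gstm1 had 487 and 684 in pairs 3 and 4, against 194 and 166 in pairs 1 and 2. In the epithelial captures, Gstm1 had 1929 and 2704 in pairs 3 and 4, against 337 and 732 in pairs 1 and 2. Gstt2 and Gstt1 likewise had their higher signals in pairs 3 and 4 within each kind of capture. For the difference between captures, 0 of the 12 member probe sets tested passed the limma test of a difference between pairs 1 and 2 and pairs 3 and 4 (1 at an unadjusted p under 0.05, the Gstm1 probe set 1425626_at), where 1.84% of all 11449 probe sets did. A count of 0 among 12 is near that share and is not a result about the members.

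The genes whose within-pair log2 differences were nearest to those of the called members at each extreme were found among the 1070 other genes called. For Gstm1, these were Kmo, an enzyme of tryptophan breakdown, Lad1, a basement membrane protein, and Hkdc1, a hexokinase-like enzyme, at root mean square distances of 0.21, 0.22 and 0.27. For Gstm5 they were Ifitm3, an interferon-induced membrane protein, Znrd2 and the growth factor Igf2, at 0.20, 0.22 and 0.25. Kmo gave -1.63 and Igf2 0.75, against -1.78 for Gstm1 and 0.81 for Gstm5. The measure compares 4 values per gene, so likeness of this kind is a description.

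Other glutathione transferases and MAPEG proteins also moved in both directions. Of 15 such genes with a probe set of their own, 9 were tested, of which 4 fell and 2 rose (median -0.64). Over all genes tested 6.02% were higher and 8.87% lower, shares that apply to each list below as well. With so few genes tested in each list, the counts are a description. Besides Gstm3 and Gstm4, the alpha class gene Gsta2 and the microsomal Mgst2 fell. Gsta2 had 175, 153, 77.8 and 128 in erythroid captures, against 368, 498, 641 and 338 in epithelial captures, with no overlap, at -1.85 ± 0.33 (SE, n = 4 pairs, limma adjusted p = 0.00549). Over pairs 1 and 2 Gsta2 gave -1.46 (limma adjusted p = 0.0594), against -2.25 over pairs 3 and 4. The value of Mgst2 was -1.32 ± 0.32 (limma adjusted p = 0.0212). Pairs 1 and 2 gave -0.61 and pairs 3 and 4 gave -2.02. The 2 that rose were Gstk1, the kappa class enzyme of mitochondria and peroxisomes, at 1.36 ± 0.36 (limma adjusted p = 0.0295; 1.12 in pairs 1 and 2, 1.59 in pairs 3 and 4), and the microsomal Mgst3 at 0.85 ± 0.19 (limma adjusted p = 0.0146). Gstk1 was above background on 2 of 4 epithelial arrays. The calls of Gstk1 ended without replicates 1, 3 or 4 (limma adjusted p = 0.0912 to 0.125) and those of Mgst2 without replicates 3 or 4 (0.0988 and 0.116). That of Mgst3 ended without replicate 4 (0.101), without the variance trend (0.0527), and with the arrays centred on their medians (0.64, adjusted p = 0.0765). In pairs 1 and 2 Mgst3 gave 0.74 (adjusted p = 0.111), against 0.96 in pairs 3 and 4. Without pair 4 the list gave 0 higher and 1 lower. Without probe sets of kinds that can bind several transcripts (x, s and a) it gave 2 higher and 2 lower. Neither Gsta2 nor Gstm3 had a value there.

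Enzymes that make, use up or recycle glutathione gave 2 of 9 higher and 1 lower (median -0.28). Chac2, which breaks glutathione down, had 828, 954, 1813 and 1094 in erythroid captures, against 278, 176, 195 and 105 in epithelial captures. The groups lay far apart, and the log2 difference was 2.52 ± 0.29 (SE, n = 4 pairs, limma adjusted p = 0.00119). It was 2.02 over pairs 1 and 2, against 3.01 over pairs 3 and 4. Gclm, the modifier subunit of glutamate-cysteine ligase, which makes the precursor of glutathione, rose by 1.79 ± 0.20 (limma adjusted p = 0.00119), and the glutaredoxin Glrx fell by 0.70 ± 0.21 (limma adjusted p = 0.0468). The call of Glrx ended without replicates 1, 3 or 4 (adjusted p = 0.0991 to 0.182).

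Of 8 genes tested for the export and further processing of glutathione conjugates, 1 rose and 0 fell by limma (2 lower at an unadjusted p under 0.05; median -0.31). These counts turned with the pairs: leaving out pair 1 gave 0 higher and 2 lower, and pairs 3 and 4 alone gave 1 higher and 3 lower. The one that rose was Abcc1, a pump that exports glutathione conjugates. It had 222, 230, 241 and 171 in erythroid captures, against 47.1, 138, 18.0 and 35.1 in epithelial captures, where it was above background on 1 of 4 arrays. Its log2 difference was 1.84 ± 0.44 (SE, n = 4 pairs, limma adjusted p = 0.0194), with no call without replicates 1, 3 or 4 (adjusted p = 0.0526 to 0.0781). The low epithelial signals leave this size uncertain. A second Abcc1 probe set, too dim to be tested, had a mean log2 difference of 0.09, higher in 2 of 4 pairs.

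Nrf2, its partners and other known targets gave 2 of 13 higher and 0 lower by limma (1 lower at an unadjusted p under 0.05; median -0.13). No gene of another list, such as Gclm or Abcc1, was counted here. Nfe2l2, which encodes Nrf2, was at -0.23, and its inhibitor Keap1 at -0.45, and neither passed (limma adjusted p = 0.488 and 0.2). Taldo1, an enzyme of the pentose phosphate pathway, rose by 1.04 ± 0.19 (limma adjusted p = 0.0065), with no call without replicate 4 (0.0537). The value was 0.82 over pairs 1 and 2, against 1.27 over pairs 3 and 4. The ferritin heavy chain Fth1 was read from its brighter probe set, which rose by 0.28 ± 0.08 (limma adjusted p = 0.0462). Its other probe set rose by 1.08 ± 0.15 (limma adjusted p = 0.00204), and the mean of both gave 0.68 (adjusted p = 0.00372), so the size of the change differed between probe sets. The brighter one had no call without replicates 2, 3 or 4 (0.107 to 0.193) or when the arrays were centred on their medians (0.567) or kept at the deposited scaling (0.0617). Taldo1 and the brighter Fth1 probe set are of a kind (a) that binds several transcripts of 1 gene, and the other of Fth1 is of the kind shared by related transcripts. Without probe sets of these kinds 0 genes of the list were higher, and with the deposited scaling 1 was higher and 1 lower.

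Among other conjugating enzymes, 3 of 8 fell and 0 rose by limma (2 higher at an unadjusted p under 0.05; median -0.73). Glyat, which joins glycine to organic acids, fell by 1.77 ± 0.28 (limma adjusted p = 0.00347), the glucuronosyltransferase Ugt2b34 by 1.46 ± 0.26 (limma adjusted p = 0.00503) and the arsenic methyltransferase As3mt by 0.89 ± 0.27 (limma adjusted p = 0.0489). Glyat and Ugt2b34 were read from probe sets shared by related transcripts. Without replicates 1, 3 or 4, As3mt was not called (adjusted p = 0.114 to 0.226). Without pair 1 the list also had 1 gene higher, and without probe sets of the x, s and a kinds 0 lower.

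**Figure D4:**
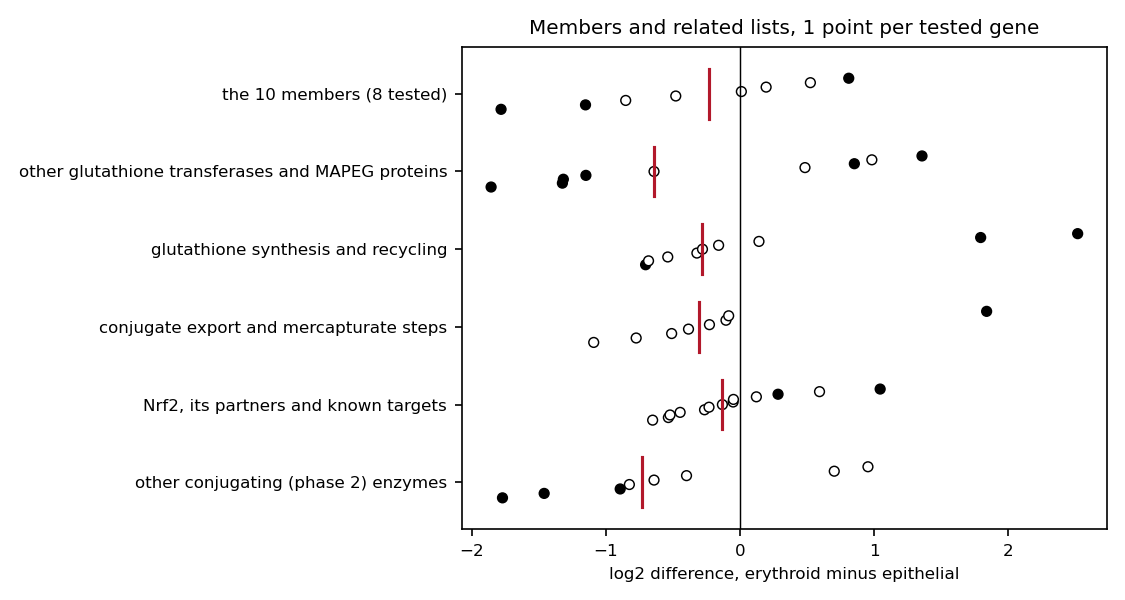
Log2 difference, erythroid minus epithelial, of each tested gene (n = 4 pairs) among the members and 5 related lists, with filled circles for called genes and a red line at the median. The members spread from -1.78 to 0.81, and Chac2 at 2.52 lies farthest to the right.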

How the data were processed

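Signals were measured on 8 Affymetrix Mouse Genome 430A 2.0 arrays, 4 erythroid and 4 epithelial. The authors deposited linear intensities, 1 per probe set and array. GCOS, MAS5 and affy are named in the submitters' processing notes, with versions not given in the sources used here. The trimmed mean (2% off each end) of the deposited values was 500 for every array. The table held 22690 probe sets, of which 64 controls were left out. Of the rest, 20380 were annotated to 1 gene, 691 to several and 1555 to none, and those with several named no gene.

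The 10th percentile of all values, 8.14, was added before log2. The array medians then spanned 0.59, above a limit of 0.5, so the arrays were quantile normalised. limma 3.58.1 in R 4.3.3 (lmFit and eBayes with a variance trend) was fitted with pair and cell type as terms and 3 residual degrees of freedom, and p-values were adjusted by Benjamini-Hochberg over all 11449 probe sets tested. The procedure was tested on simulated data with independent normal errors. Such data hold no error shared between probe sets or between arrays, so they do not show how well the threshold holds here. Background on an array was set at the 95th percentile of 117 probe sets of genes not expected in these cells (beta-defensins, keratin-associated proteins, and receptors for taste, pheromones and odorants). The number of arrays limits the precision.

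Pairs come from the labels' protocols. Deviations from the group means correlated at 0.44, 0.34, 0.31 and 0.54 within pairs 1 to 4, across the probe sets tested. Captures of different pairs were not compared in this way, so these values do not test the pairing. Nothing more is known of how independent the pairs were than that each pooled several yolk sacs.

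Members and lists were chosen with earlier results of these data known. Named genes were all members, the 3 called genes with the largest change in each list, and the 3 nearest in pattern to the extreme members called. Gstm3, Mgst2, Mgst3, Nfe2l2 and Keap1 were named after their values were seen. Alternatives tried were other scalings, offset, filters, fits without the pair term or trend, leaving out each pair, each set of pairs, and other rules for probe sets.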

Additional observations from a re-analysis of the deposited data

Results flagged for a closer look

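In 32 groups of 4 arrays (16 member probe sets, 2 kinds of capture), 4 held a sample far from the other 3, by the share of the group's range on the log2 scale that parts it from the nearest other. Chance alone gives about 1 in 20. Of these, 3 were on the dimmer Gstm1 probe sets, which carried no call. On 1425626_at the erythroid capture of pair 2 was high (signal 292, share 0.934) and the epithelial capture of pair 1 low (13.7, share 0.895). On 1425627_x_at the erythroid capture of pair 1 was low (22.5, share 0.834). On the Mgst1 probe set 1415898_at, under background on every array, the erythroid capture of pair 3 was the highest (28.3, share 0.832).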

How the results depend on the processing

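Without the pair term, that is with no replicate block, 0 members were called higher and 0 lower, and of all probe sets tested 160 were higher and 285 lower, against 709 and 881 with it. Gstm1 then had an adjusted p of 0.13, Gstt2 of 0.307 and Gstm5 of 0.139 at unchanged sizes. Without a variance trend, 0 members were called higher, with 179 and 339 probe sets over the table. With the arrays centred on their medians, which moved the median of all probe sets tested to -0.11 from 0.02, 0 members were called higher and the table gave 455 higher and 1097 lower, and the test between the sets of pairs called 1 member probe set (1425626_at of Gstm1, adjusted p = 0.0434). Pairs 1 and 2 gave 0 members higher and 1 lower, with 246 and 321 over the table, and pairs 3 and 4 gave 1264 higher over the table. Without x, s and a probe sets the table gave 376 and 520, since fewer were tested, and averaging the probe sets of each gene gave 440 genes higher. Leaving out 1 pair at a time gave 0 to 1 members higher, 1 to 2 lower, 214 to 717 probe sets higher over the table and 342 to 844 lower, and 0 to 1 member probe sets in the test between sets of pairs (1425627_x_at of Gstm1 without replicate 1, adjusted p = 0.00156). The causes were not tested. Both brighter Gstm1 probe sets were called in 13 of 14 alternatives, Gstm5 in 9 of 15 and Gstt2 in 9 of 14, and each kept its sign in all of them. With 4 arrays a group, signals near background (Gsta3, Gstm2, Mgst1, Gstt2) limit what can be said of size.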
